A study of Rattus norvegicus with 16 samples.

Results

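In all, 10 genes of osteoblasts and of matrix mineralisation were followed across 4 rat tendons: Sp7, Runx2, Alpl, Phospho1, Phex, Ibsp, Bglap, Dmp1, Mepe and Spp1. They were taken by gene name from the deposited count table, where each of the 10 names matched 1 gene among 23285. All 10 passed the filter on low counts and were tested among 16948 genes. The tissues were the Achilles tendon, the flexor tendons of the forepaw, the patellar tendon and the supraspinatus tendon of the shoulder, all from Sprague Dawley rats with no treatment or genotype named in the labels. Total RNA was sequenced in 16 libraries, 4 for each tendon, and the stated design was to test expression between every pair of tendons. Titles number the libraries as Rat 1 to Rat 4 within each tendon, and the labels do not explain whether a number stands for an animal. If it does not, p-values measure only the spread between these samples, which may be technical.

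Osteoblasts lay down a collagen matrix and then fill it with calcium phosphate. Runx2 and Sp7 are the transcription factors that commit cells to this lineage. Phosphatases raise the local supply of phosphate, and acidic secreted proteins bind mineral and shape its growth. Tendon shaft normally stays free of mineral, while the enthesis, the attachment to bone, passes through fibrocartilage and mineralised fibrocartilage into bone.

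Levels are TMM-scaled CPM (counts of a gene scaled to its library's size), given for libraries 1 to 4 of a tendon in that order. Fold changes are log2 values ± SE, the first tendon over the second, from edgeR's quasi-likelihood test, with adjusted p-values from the Benjamini-Hochberg method over all genes tested and a threshold of 0.05. Library totals ran from 63397591 to 102491699 counts. Before TMM scaling, 3 counts thus corresponded to 0.0293 to 0.0473 CPM, a limit that covers counting error only. The counts are not scaled by transcript length, so levels were compared between tendons and never between genes. In bulk RNA, fewer cells of a type and less RNA per cell cannot be told apart. Muscle RNA stood apart between libraries: the summed CPM of 16 measured skeletal muscle markers ran from 337.4 to 10120 in the Achilles, 15100 to 56620 in the flexor, 313.4 to 30360 in the patellar and 123600 to 231100 in the supraspinatus libraries.

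All 10 genes differed among the 4 tendons, where 75.6% of all genes tested did so. The supraspinatus tendon had the highest mean of 8 of the 10 genes, Bglap was highest in the Achilles tendon, and Phex was highest in the patellar tendon. For Sp7, Runx2, Ibsp, Dmp1 and Spp1 supraspinatus tendon did not pass the test against the next highest tendon (edgeR adjusted p 0.0618 to 0.907). Nor did patellar against Achilles tendon for Phex (edgeR adjusted p = 0.118). The flexor tendons had the lowest mean of Sp7, Runx2, Alpl, Ibsp, Bglap and Dmp1. For Alpl, Ibsp and Bglap they did not pass the test against the next lowest tendon (edgeR adjusted p 0.661 to 0.89). Supraspinatus 2 was the highest of all 16 libraries for 5 genes, and Achilles 1 was the lowest for 3. The genes thus did not share 1 order of tendons: Phospho1 and Phex ran in nearly opposite orders, and Bglap stood apart from the other matrix genes.

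**Figure D1:**
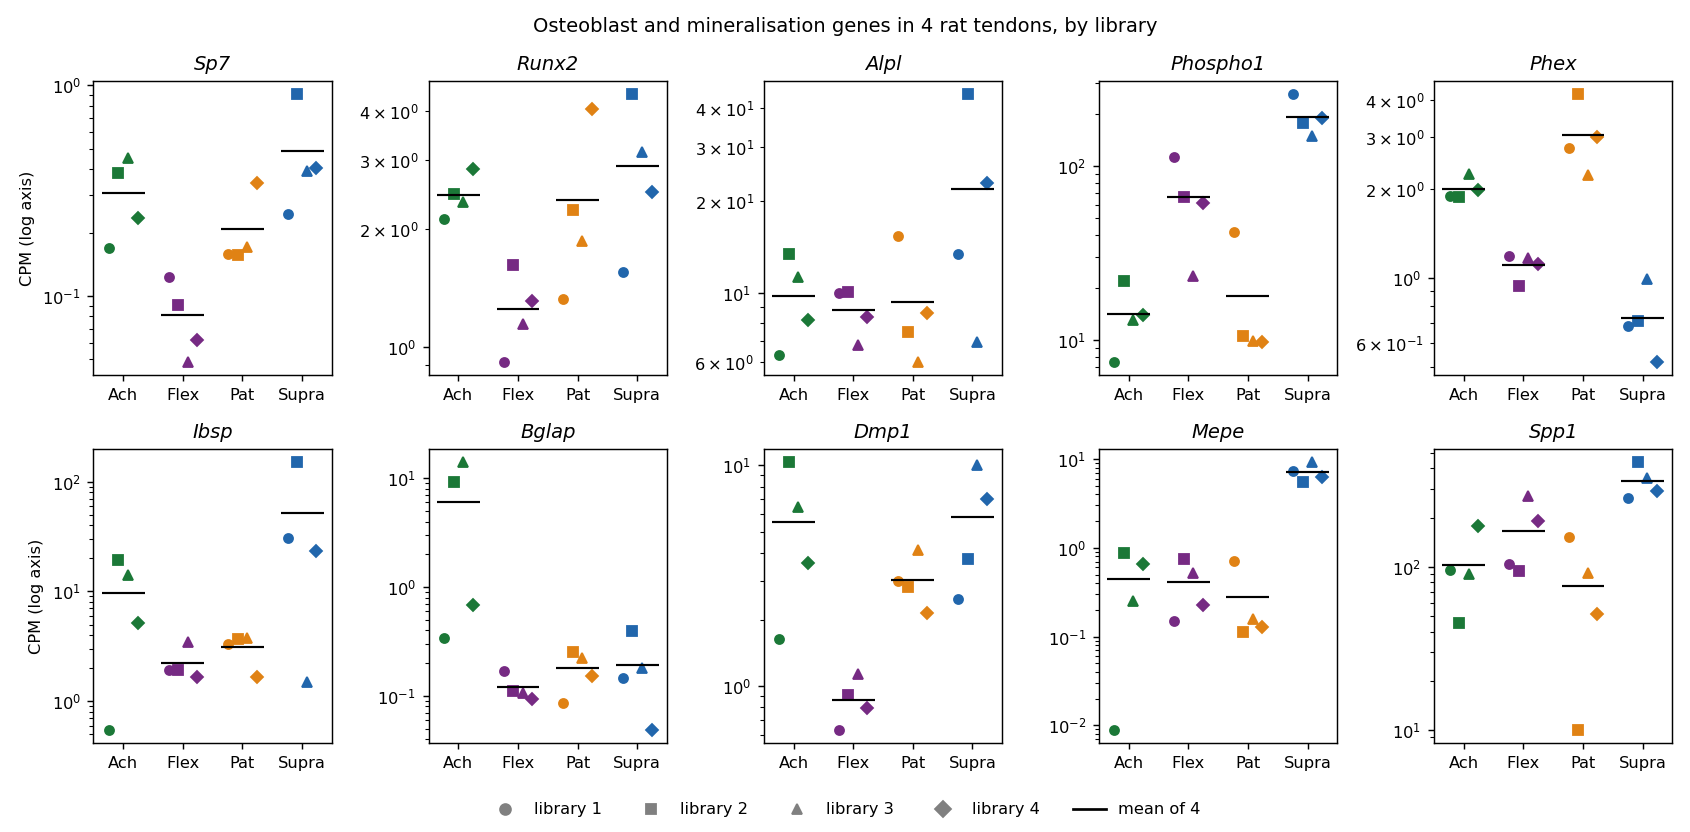
Level of each gene in every library (vertical log axis, CPM; the scale differs between panels) for the Achilles (Ach), flexor (Flex), patellar (Pat) and supraspinatus (Supra) tendons. Marker shapes give the library number and bars the mean of 4 libraries; Mepe, for example, averaged 7.08 CPM in supraspinatus tendon, with no overlap with the other tendons.

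Sp7 (osterix, ENSRNOG00000014082), the zinc-finger factor that acts after Runx2 in the osteoblast lineage, was scarce everywhere and scarcest in the flexor tendons. It stood at 0.168, 0.383, 0.454 and 0.234 CPM in the Achilles libraries and at 0.123, 0.0907, 0.0486 and 0.0618 CPM in the flexor libraries. It stood at 0.158, 0.156, 0.172 and 0.344 CPM in the patellar libraries and at 0.245, 0.904, 0.391 and 0.405 CPM in the supraspinatus libraries. Every flexor library was below every library of the other tendons, with only 5 to 13 counts against 11 to 71 elsewhere. The means were 0.310 ± 0.132 CPM in Achilles, 0.0810 ± 0.0329 in flexor, 0.207 ± 0.0911 in patellar and 0.486 ± 0.288 CPM in supraspinatus tendon (SD, n = 4 each). Sp7 was higher in Achilles than in flexor tendon by 1.91 ± 0.48 (edgeR adjusted p = 0.00468). It was lower in flexor than in supraspinatus tendon, at -2.56 ± 0.49 (edgeR adjusted p = 5.86e-04), and than in patellar tendon, at -1.34 ± 0.49 (edgeR adjusted p = 0.0331). It was also lower in patellar than in supraspinatus tendon, at -1.22 ± 0.46 (edgeR adjusted p = 0.0343), although those libraries overlapped. The flexor-patellar call was lost without flexor 2, 3 or 4 or patellar 4 (edgeR adjusted p 0.0523 to 0.113), and the patellar-supraspinatus call without patellar 1, 2 or 3 or supraspinatus 2 (0.0738 to 0.174) and with the replicate number as a block (0.0658). The latter was also lost on library totals (edgeR adjusted p = 0.131), with no filter (0.0501), in a fit of those 2 tendons alone (0.0567) and with Achilles 1 and patellar 1 left out (0.062). With limma-voom both calls were lost (adjusted p = 0.0603 and 0.0521). Achilles tendon did not pass the test against patellar (edgeR adjusted p = 0.488) or supraspinatus tendon (0.242).

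Runx2 (ENSRNOG00000020193), the master factor of osteoblast commitment, had its lowest mean in the flexor tendons as well. Its levels were 2.13, 2.45, 2.35 and 2.85 CPM in the Achilles libraries and 0.915, 1.62, 1.15 and 1.31 CPM in the flexor libraries. They were 1.33, 2.24, 1.86 and 4.06 CPM in the patellar libraries and 1.56, 4.42, 3.14 and 2.49 CPM in the supraspinatus libraries. The Achilles libraries lay close together and above all flexor libraries, whereas patellar 1 and supraspinatus 1 fell within the flexor range. The means were 2.44 ± 0.302 CPM in Achilles, 1.25 ± 0.297 in flexor, 2.37 ± 1.19 in patellar and 2.90 ± 1.2 CPM in supraspinatus tendon (SD, n = 4 each). Runx2 was higher in Achilles than in flexor tendon by 0.97 ± 0.34 (edgeR adjusted p = 0.0304). It was lower in flexor than in patellar tendon, at -0.93 ± 0.34 (edgeR adjusted p = 0.0355), and than in supraspinatus tendon, at -1.22 ± 0.34 (edgeR adjusted p = 0.00924). Among the Achilles, patellar and supraspinatus tendons no pair passed the test (edgeR adjusted p 0.485 to 0.958). The Achilles-flexor call was lost without Achilles 4 or flexor 1 or 3 (edgeR adjusted p 0.0569 to 0.0733), the flexor-patellar call without flexor 1, 3 or 4 or patellar 2 or 4 (0.0505 to 0.144), and the difference among the 4 tendons without flexor 1, 3 or 4 or supraspinatus 3 (0.0502 to 0.0774). That last difference was also lost on library totals (edgeR adjusted p = 0.0506), and the flexor-patellar call with limma-voom (adjusted p = 0.0651).

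Alpl (ENSRNOG00000013954) encodes tissue-nonspecific alkaline phosphatase, which breaks down pyrophosphate, an inhibitor of mineral, and releases phosphate. Its levels were 6.32, 13.4, 11.3 and 8.17 CPM in the Achilles libraries and 10, 10.1, 6.82 and 8.35 CPM in the flexor libraries. They were 15.3, 7.46, 5.98 and 8.61 CPM in the patellar libraries and 13.5, 44.3, 6.94 and 22.9 CPM in the supraspinatus libraries. Supraspinatus 2 and 4 were the highest of the 16 libraries, while supraspinatus 3 was among the lowest, so the groups overlapped in every pair. Alpl averaged 9.79 ± 3.15 CPM in Achilles, 8.81 ± 1.55 in flexor, 9.34 ± 4.12 in patellar and 21.9 ± 16.3 CPM in supraspinatus tendon (SD, n = 4 each). Against supraspinatus tendon it was lower in Achilles, at -1.16 ± 0.45 (edgeR adjusted p = 0.0434), in flexor, at -1.31 ± 0.45 (0.0264), and in patellar tendon, at -1.23 ± 0.45 (0.0309). Without supraspinatus 2 these were -0.56, -0.71 and -0.63, with edgeR adjusted p-values of 0.253, 0.151 and 0.188, and the difference among the 4 tendons had an adjusted p of 0.318 (0.0868 without supraspinatus 4). The Achilles-supraspinatus call was also lost without Achilles 1, 3 or 4, flexor 4 or supraspinatus 4, the flexor-supraspinatus call without flexor 3 or 4 or supraspinatus 4, and the patellar-supraspinatus call without patellar 2, 3 or 4 or supraspinatus 4 (edgeR adjusted p 0.0504 to 0.106 over these fits). With the replicate number as a block the Achilles and patellar calls against supraspinatus tendon had edgeR adjusted p-values of 0.0813 and 0.0571, and the difference among the 4 tendons 0.072. The Achilles, flexor and patellar calls against supraspinatus tendon and the difference among the 4 tendons were also lost on library totals (edgeR adjusted p = 0.16, 0.0894, 0.132 and 0.182) and with limma-voom (adjusted p = 0.11, 0.0826, 0.0921 and 0.151). In fits of 2 tendons alone the same pair calls had edgeR adjusted p-values of 0.0964, 0.0578 and 0.0921. The Achilles call was also lost with no filter (0.0543) and with Achilles 1 and patellar 1 left out (0.0782). Endothelium also makes this phosphatase, and the 8 endothelial markers measured summed to 1242 to 1837 CPM in the Achilles, 410.0 to 710.4 in the flexor, 1508 to 2474 in the patellar and 619.5 to 1226 in the supraspinatus libraries. The cartilage collagen gene Col2a1 had the same highest and lowest libraries as Alpl within the Achilles and within the supraspinatus tendon. Within the patellar tendon neither was shared, and within the flexor tendons only the highest was. The part of endothelium or cartilage in the Alpl differences was not tested.

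Phospho1 (ENSRNOG00000005569), a phosphatase that releases phosphate from phosphocholine and phosphoethanolamine inside matrix vesicles, had a wide spread across the tendons. It stood at 7.51, 21.9, 13.1 and 13.98 CPM in the Achilles libraries and at 112, 66.6, 23.5 and 61.7 CPM in the flexor libraries. It stood at 42.0, 10.6, 9.87 and 9.73 CPM in the patellar libraries and at 257, 176, 149 and 188 CPM in the supraspinatus libraries. The supraspinatus libraries were above all others, and the flexor libraries were above the Achilles libraries. The means were 14.1 ± 5.94 CPM in Achilles, 66.0 ± 36.3 in flexor, 18.0 ± 15.96 in patellar and 192 ± 46.4 CPM in supraspinatus tendon (SD, n = 4 each). Phospho1 was 13.6-fold lower in Achilles than in supraspinatus tendon (-3.77 ± 0.57, edgeR adjusted p = 9.18e-05) and 10.7-fold lower in patellar than in supraspinatus tendon (-3.41 ± 0.56, 1.52e-04). It was lower in Achilles than in flexor tendon at -2.23 ± 0.54 (edgeR adjusted p = 0.00348), higher in flexor than in patellar tendon at 1.87 ± 0.53 (0.00877), and lower in flexor than in supraspinatus tendon at -1.54 ± 0.52 (0.0247). Patellar 1 alone carried most of the patellar level: without it the flexor-patellar and patellar-supraspinatus values were 2.69 and -4.28. The flexor-supraspinatus call was lost without flexor 3 or supraspinatus 1 or 4 (edgeR adjusted p 0.0516 to 0.0727) and on plain library totals (0.0718).

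Skeletal muscle markers moved with Phospho1 across many of the libraries. Their summed CPM was 337.4, 10120, 2081 and 9878 in the Achilles libraries and 56620, 32970, 15100 and 41300 in the flexor libraries. It was 30360, 1149, 313.4 and 4169 in the patellar libraries and 174800, 123600, 139000 and 231100 in the supraspinatus libraries. Patellar 1, the library with the highest Phospho1 of its tendon, also had the highest muscle sum of its tendon, and flexor 3, with the lowest Phospho1 of the flexor libraries, had the lowest muscle sum. The orders were not the same throughout: patellar 4 had the lowest Phospho1 but the second highest muscle sum of its tendon, and supraspinatus 4 had the highest muscle sum of all libraries but not the highest Phospho1. Of the 16 muscle markers tested, 13 were lower in Achilles and 16 were lower in patellar than in supraspinatus tendon. Only 3 were lower in flexor than in supraspinatus tendon, where Phospho1 was also lower. In Achilles against flexor tendon 11 were lower and 1 was higher, and in flexor against patellar tendon 5 were higher. Among the genes whose log2 CPM was most like that of Phospho1 over the 16 libraries were Popdc2 and Lrrc14b (Pearson r = 0.983 and 0.980 among 12298 genes searched, named here after their values were seen). Libraries of 1 tendon share its differences from the other tendons in these correlations. The part of muscle RNA in the Phospho1 differences was not tested.

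**Figure D2:**
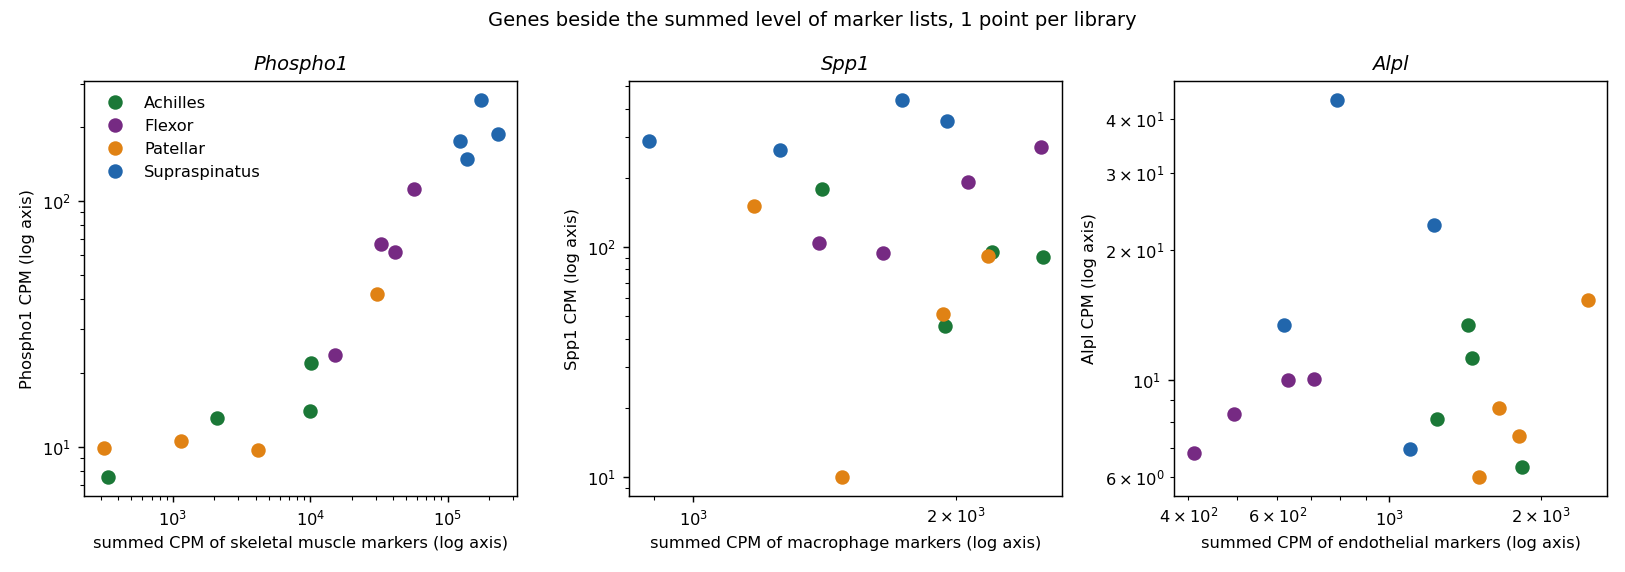
Levels of Phospho1, Spp1 and Alpl (vertical log axes, CPM) against the summed CPM of skeletal muscle, macrophage and endothelial markers (horizontal log axes), 1 point per library, coloured by tendon. Phospho1 and the muscle sum are both highest in the 4 supraspinatus libraries, and patellar 1, at 42.0 CPM of Phospho1, sits beside the flexor libraries.

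Phex (ENSRNOG00000023440), a membrane peptidase of osteoblasts and osteocytes whose loss causes X-linked hypophosphataemia, ran the other way. Its levels were 1.90, 1.87, 2.25 and 1.98 CPM in the Achilles libraries and 1.18, 0.937, 1.17 and 1.11 CPM in the flexor libraries. They were 2.74, 4.17, 2.23 and 2.99 CPM in the patellar libraries and 0.687, 0.713, 0.991 and 0.518 CPM in the supraspinatus libraries. All Achilles and patellar libraries were above all flexor and supraspinatus libraries. Phex averaged 2.0 ± 0.172 CPM in Achilles, 1.10 ± 0.112 in flexor, 3.03 ± 0.822 in patellar and 0.727 ± 0.196 CPM in supraspinatus tendon (SD, n = 4 each). It was 4.16-fold higher in patellar than in supraspinatus tendon (2.06 ± 0.23, edgeR adjusted p = 5.75e-06) and 2.74-fold higher in Achilles than in supraspinatus tendon (1.46 ± 0.22, 9.43e-05). It was higher in Achilles than in flexor tendon by 0.86 ± 0.22 (edgeR adjusted p = 0.00457) and lower in flexor than in patellar tendon at -1.46 ± 0.22 (8.07e-05). Achilles and patellar tendon did not pass the test (-0.60 ± 0.21, edgeR adjusted p = 0.118). The small flexor-supraspinatus difference of 0.59 ± 0.22 (edgeR adjusted p = 0.0373) was lost without any 1 of 11 libraries (0.0524 to 0.108): Achilles 2 or 3, each flexor library, patellar 1 or 4, or supraspinatus 1, 2 or 4. It was also lost with the replicate number as a block (edgeR adjusted p = 0.0511), with the filter of 1 CPM in 4 libraries (0.0504), with Achilles 1 and patellar 1 left out (0.0646) and with limma-voom (adjusted p = 0.0526).

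Marrow and fat markers were also higher in both tendons where Phex was highest. The sum of 12 neutrophil and marrow granule markers was 15.69 to 28.94 CPM in the Achilles, 3.49 to 3.87 in the flexor, 38.74 to 85.76 in the patellar and 2.62 to 3.29 CPM in the supraspinatus libraries. The sum of 8 adipocyte markers was 2876 to 10540 CPM in the Achilles, 428.6 to 842.7 in the flexor, 4507 to 11700 in the patellar and 169.6 to 432.8 CPM in the supraspinatus libraries. Of the markers tested, 7 of 9 in the marrow list and 8 of 8 in the fat list were higher in Achilles than in supraspinatus tendon, and 9 of 9 and 8 of 8 were higher in patellar than in supraspinatus tendon. These sums thus separated the Achilles and patellar libraries from the rest as Phex did. Between flexor and supraspinatus tendon, where Phex was higher in flexor, 6 of 8 fat markers were also higher, but 5 of 8 endothelial markers were lower. The part of these cells in the Phex differences was not tested. Mpo, the myeloperoxidase of granulocyte precursors, had 259 to 1787 counts in the Achilles and 867 to 4046 in the patellar libraries, against 20 to 37 in the flexor and 2 to 18 in the supraspinatus libraries.

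Of the matrix genes, 4 belong to the SIBLING family of secreted, acidic, integrin-binding phosphoproteins. In the RefSeq gene order of rat chromosome 14 they stand side by side as Spp1, Mepe, Ibsp and Dmp1, followed by Dspp, the dentin gene. Bglap lies apart on chromosome 2. Promoter windows of 250 bases before to 50 bases after a start site were found in RefSeq (build GRCr8, while rn6 is the build named for the counts) for 8 of the 10 genes, in 9 windows. The 3 windows below are printed for the matrix genes with the largest fold changes, 5′ to 3′ on the gene's strand, with capitals for each match to the RUNX core (TGTGGT or, on the other strand, ACCACA) and to a TATA box (TATAAA or TTTATA).
Bglap, chr2:176137269-176137568, minus strand: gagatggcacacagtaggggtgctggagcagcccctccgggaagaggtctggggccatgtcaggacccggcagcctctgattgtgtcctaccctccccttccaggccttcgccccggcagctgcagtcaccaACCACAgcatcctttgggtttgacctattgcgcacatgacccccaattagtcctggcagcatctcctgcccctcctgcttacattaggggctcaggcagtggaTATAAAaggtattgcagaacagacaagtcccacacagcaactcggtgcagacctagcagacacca
Ibsp, chr14:5757193-5757492, minus strand: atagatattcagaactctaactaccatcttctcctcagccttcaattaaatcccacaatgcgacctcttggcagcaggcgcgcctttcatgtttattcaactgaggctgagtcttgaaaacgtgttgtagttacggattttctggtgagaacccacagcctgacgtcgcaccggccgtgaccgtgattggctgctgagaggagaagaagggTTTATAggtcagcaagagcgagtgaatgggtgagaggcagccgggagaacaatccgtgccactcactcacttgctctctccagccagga
Mepe, chr14:5736809-5737108, minus strand: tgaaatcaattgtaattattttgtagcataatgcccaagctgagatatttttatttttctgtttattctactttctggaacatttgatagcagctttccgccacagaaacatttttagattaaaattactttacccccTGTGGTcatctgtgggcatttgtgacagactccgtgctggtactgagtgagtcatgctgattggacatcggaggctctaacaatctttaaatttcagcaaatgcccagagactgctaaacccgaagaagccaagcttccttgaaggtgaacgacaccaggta
The Bglap window held a RUNX core match 118 bases before the start site and a TATA match 15 bases before it, on the forward strand. The Ibsp window held a TATA match on the reverse strand, 39 bases before the start site, and the Mepe window a RUNX core match 112 bases before it. Among 33469 RefSeq promoters of this length, 17.3% held the RUNX core and 14.2% the TATA motif on either strand, and 3 of the 9 windows held each. A match describes letters and is not evidence of binding.

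Ibsp (ENSRNOG00000002158) encodes bone sialoprotein, which nucleates mineral crystals and is made by osteoblasts and by hypertrophic cartilage. Its levels were 0.549, 19.2, 14.1 and 5.21 CPM in the Achilles libraries and 1.92, 1.93, 3.49 and 1.67 CPM in the flexor libraries. They were 3.35, 3.72, 3.78 and 1.67 CPM in the patellar libraries and 30.6, 149.5, 1.51 and 23.1 CPM in the supraspinatus libraries. Libraries of 1 tendon differed widely: Achilles 1 had the lowest level of all 16 libraries with 62 counts, and supraspinatus 3, with 108 counts, stood below every flexor and patellar library although the other supraspinatus libraries were the highest of all. The means were 9.76 ± 8.44 CPM in Achilles, 2.25 ± 0.836 in flexor, 3.13 ± 0.991 in patellar and 51.2 ± 66.7 CPM in supraspinatus tendon (SD, n = 4 each). Ibsp was lower in flexor than in supraspinatus tendon at -4.51 ± 1.12 (edgeR adjusted p = 0.00397) and lower in patellar than in supraspinatus tendon at -4.03 ± 1.09 (0.00588). Without supraspinatus 2 these were -3.03 and -2.56 (edgeR adjusted p = 0.0176 and 0.0323), and limma-voom gave adjusted p-values of 0.0792 and 0.115, and 0.175 among the 4 tendons. Achilles tendon did not pass the test against flexor (2.12 ± 1.01, edgeR adjusted p = 0.0999) or supraspinatus tendon (-2.39 ± 1.01, 0.0618). The Achilles-flexor difference did pass without Achilles 1 (edgeR adjusted p = 0.0402) or supraspinatus 3 (0.0457), and the Achilles-supraspinatus difference without supraspinatus 3 (0.0153).

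Col2a1, the collagen gene of cartilage, followed the same order as Ibsp within the Achilles and within the supraspinatus libraries, but not within the flexor or the patellar libraries. It stood at 18.2, 114, 49.6 and 48.4 CPM in the Achilles libraries and at 9.19, 16.8, 9.46 and 11.4 CPM in the flexor libraries. It stood at 46.7, 43.6, 48.1 and 51.7 CPM in the patellar libraries and at 2019, 4173, 195.2 and 669 CPM in the supraspinatus libraries. For both genes Achilles 1 was the lowest and Achilles 2 the highest of the Achilles libraries, and supraspinatus 3 was the lowest and supraspinatus 2 the highest of the supraspinatus libraries. Patellar 4, however, was the lowest patellar library for Ibsp and the highest for Col2a1. Flexor 3 was the highest flexor library for Ibsp but not for Col2a1. Of 16 cartilage and hypertrophic chondrocyte markers tested, 8 were lower and 1, Epyc, was higher in patellar than in supraspinatus tendon. Acan, Hapln1 and Col11a2 did not pass in that pair (edgeR adjusted p = 0.496, 0.576 and 0.961). In flexor against supraspinatus tendon 5 were lower and 2 were higher. The 2 were Sox5, at 1.4 ± 0.30, and Cnmd, at 3.43 ± 1.26 (edgeR adjusted p = 0.00149 and 0.0364). Sox9 had its highest mean in the flexor tendons, where Ibsp had its lowest. Sox9 was -3.39 ± 0.58 in Achilles against flexor tendon (edgeR adjusted p = 2.68e-04). Its flexor-supraspinatus difference did not pass (edgeR adjusted p = 0.0749). The sum over the list was 3507 to 7729 CPM in the Achilles, 4490 to 7387 in the flexor, 1142 to 3552 in the patellar and 6570 to 11410 CPM in the supraspinatus libraries. Most of that sum came from 1 gene of the list, Chad. It averaged 4111 CPM in Achilles, 5066 in flexor, 1584 in patellar and 5815 CPM in supraspinatus tendon, so the sum does not follow Col2a1. Col10a1, the collagen of hypertrophic cartilage, had 8 to 57 counts in the libraries of the other tendons and 124, 148, 32 and 55 counts in supraspinatus 1 to 4. Panx3, a channel gene of hypertrophic chondrocytes and osteoblasts, had 4 and 23 counts in Achilles 2 and 3, 1 to 6 in the flexor libraries, 13 and 39 in supraspinatus 1 and 2, and 0 in every other library. The part of cartilage RNA in the Ibsp differences was not tested.

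**Figure D3:**
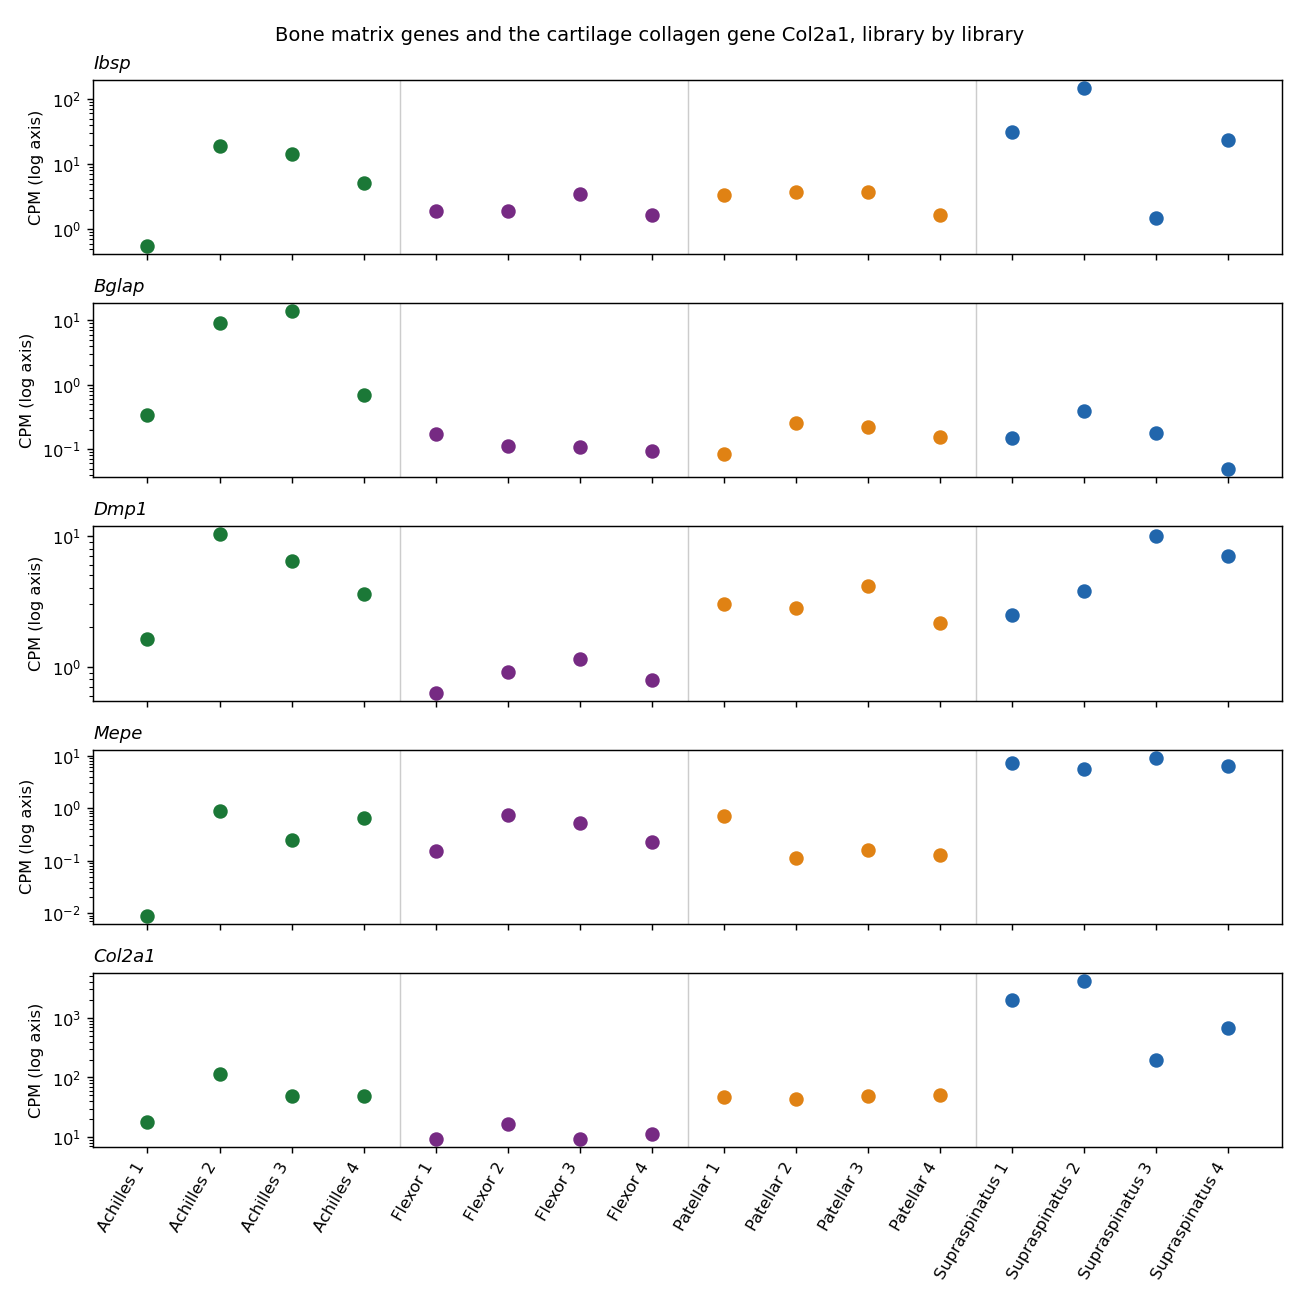
Levels of Ibsp, Bglap, Dmp1, Mepe and the cartilage collagen gene Col2a1 (vertical log axes, CPM) in each of the 16 libraries, ordered by tendon. Ibsp and Col2a1 both peak in supraspinatus 2 and dip in supraspinatus 3, Bglap stands at 9.28 and 14.03 CPM only in Achilles 2 and 3, and Mepe is even across the supraspinatus libraries.

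Bglap (ENSRNOG00000019607) encodes osteocalcin, the vitamin K-dependent protein made by mature osteoblasts, and was an Achilles gene in these libraries. It stood at 0.337, 9.28, 14.03 and 0.690 CPM in the Achilles libraries and at 0.170, 0.111, 0.107 and 0.0927 CPM in the flexor libraries. It stood at 0.0851, 0.255, 0.224 and 0.153 CPM in the patellar libraries and at 0.147, 0.395, 0.181 and 0.0485 CPM in the supraspinatus libraries. Achilles 2 and 3 carried 896 and 1392 counts, Achilles 1 and 4 only 38 and 62, and no other library more than 31. Bglap averaged 6.08 ± 6.72 CPM in Achilles, 0.120 ± 0.0341 in flexor, 0.179 ± 0.0761 in patellar and 0.193 ± 0.146 CPM in supraspinatus tendon (SD, n = 4 each). It was higher in Achilles than in flexor tendon by 5.64 ± 1.04 (edgeR adjusted p = 5.07e-04), than in patellar tendon by 5.08 ± 1.01 (0.0127) and than in supraspinatus tendon by 4.95 ± 1.01 (9.21e-04). Achilles 1 lay below supraspinatus 2, so that pair overlapped. Without Achilles 3 the values were 4.84, 4.25 and 4.10, still past the threshold, and without supraspinatus 2 the last was 5.56. With limma-voom the calls against patellar and supraspinatus tendon were lost (adjusted p = 0.175 and 0.0616, and 0.0734 among the 4 tendons), and in a fit of Achilles and patellar tendon alone edgeR gave 0.0796. Between the flexor, patellar and supraspinatus tendons no pair passed the test (edgeR adjusted p 0.589 to 0.919). Mouse has several near-identical osteocalcin genes. In the RefSeq gene order of rat chromosome 2, Bglap stands between Paqr6 and Pmf1, with no second osteocalcin gene beside it. The annotation used for counting is not given in the sources used here, so whether reads were shared with a copy there is not known.

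Dmp1 (ENSRNOG00000002167), dentin matrix protein 1, is made mostly by osteocytes and shapes mineral and phosphate balance. Its levels were 1.64, 10.3, 6.48 and 3.59 CPM in the Achilles libraries and 0.632, 0.907, 1.14 and 0.793 CPM in the flexor libraries. They were 2.99, 2.81, 4.13 and 2.15 CPM in the patellar libraries and 2.49, 3.77, 9.98 and 7.01 CPM in the supraspinatus libraries. All 4 flexor libraries were below every other library. Supraspinatus 3, the lowest of its tendon for Ibsp, was the highest of its tendon for Dmp1. The means were 5.51 ± 3.77 CPM in Achilles, 0.868 ± 0.213 in flexor, 3.02 ± 0.824 in patellar and 5.81 ± 3.37 CPM in supraspinatus tendon (SD, n = 4 each). Dmp1 was 6.34-fold higher in Achilles than in flexor tendon (2.66 ± 0.52, edgeR adjusted p = 7.97e-04), and lower in flexor than in patellar tendon (-1.80 ± 0.51, 0.00875) and than in supraspinatus tendon (-2.74 ± 0.52, 5.97e-04). The other pairs did not pass the test (edgeR adjusted p 0.115 to 0.907).

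Mepe (ENSRNOG00000002154), matrix extracellular phosphoglycoprotein, carries an acidic peptide motif that inhibits mineralisation, and it was a supraspinatus gene in these libraries. Its levels were 0.00886, 0.880, 0.252 and 0.657 CPM in the Achilles libraries and 0.151, 0.746, 0.516 and 0.227 CPM in the flexor libraries. They were 0.718, 0.114, 0.158 and 0.127 CPM in the patellar libraries and 7.26, 5.53, 9.20 and 6.34 CPM in the supraspinatus libraries. The supraspinatus libraries, with 392 to 659 counts, were above all others, which had 1 to 85 counts; Achilles 1 had a single count. Mepe averaged 0.449 ± 0.392 CPM in Achilles, 0.410 ± 0.274 in flexor, 0.279 ± 0.293 in patellar and 7.08 ± 1.58 CPM in supraspinatus tendon (SD, n = 4 each). Against supraspinatus tendon it was 15.8-fold lower in Achilles (-3.98 ± 0.86, edgeR adjusted p = 0.0015), 17.2-fold lower in flexor (-4.11 ± 0.87, 0.00133) and 25.0-fold lower in patellar tendon (-4.64 ± 0.90, 5.66e-04). Without patellar 1 the last value was -5.74. These 3 calls held in every alternative run. Unlike Ibsp, Mepe did not dip in supraspinatus 3, and among the Achilles, flexor and patellar tendons no pair passed the test (edgeR adjusted p 0.613 to 0.913). With Achilles 1 and patellar 1 left out, a choice made after seeing the data, Mepe did pass in Achilles against patellar (0.0415) and flexor against patellar tendon (0.032). The muscle marker sums given above were also highest in the 4 supraspinatus libraries, and their part in the Mepe differences was not tested.

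Spp1 (ENSRNOG00000043451) encodes osteopontin, which binds mineral and inhibits its growth and is made by osteoblasts, macrophages and other cells. Its levels were 95.4, 45.2, 90.7 and 178 CPM in the Achilles libraries and 104, 93.8, 272 and 191 CPM in the flexor libraries. They were 152, 9.99, 91.6 and 51.1 CPM in the patellar libraries and 264, 436, 352 and 290 CPM in the supraspinatus libraries. The supraspinatus libraries were above all Achilles and patellar libraries, while flexor 3 reached into their range and patellar 2 was the lowest library. Spp1 averaged 102 ± 55.3 CPM in Achilles, 165 ± 83.4 in flexor, 76.1 ± 60.4 in patellar and 336 ± 76.7 CPM in supraspinatus tendon (SD, n = 4 each). It was lower in Achilles than in supraspinatus tendon at -1.71 ± 0.61 (edgeR adjusted p = 0.0303) and lower in patellar than in supraspinatus tendon at -2.14 ± 0.62 (0.00893), or -2.75 without patellar 1. The Achilles-supraspinatus call was lost without Achilles 1, 2 or 3 or supraspinatus 2 or 3 (edgeR adjusted p 0.0517 to 0.0766), and the difference among the 4 tendons without supraspinatus 2 (0.0546). Both were also lost on library totals (edgeR adjusted p = 0.0702 and 0.064). The flexor-patellar difference, 1.12 ± 0.60 (edgeR adjusted p = 0.136), passed without patellar 1 (0.0372), and the flexor-supraspinatus difference, -1.02 ± 0.60 (0.176), passed in a fit of those tendons alone (0.04). The 13 macrophage markers measured summed to 1405 to 2514 CPM in the Achilles, 1393 to 2503 in the flexor, 1174 to 2176 in the patellar and 888.4 to 1952 CPM in the supraspinatus libraries. Flexor 3 had the highest Spp1 and the highest macrophage sum of its tendon. Achilles 4 and patellar 1, in contrast, had the highest Spp1 but the lowest macrophage sums of their tendons (1405 and 1174 CPM). The muscle sums given above were, like Spp1, highest on average in supraspinatus tendon. The part of macrophage or muscle RNA in the Spp1 differences was not tested.

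Between Achilles and flexor tendon, 5 of the 10 genes (Sp7, Runx2, Phex, Bglap and Dmp1) were higher in Achilles, where 23.5% of all genes were, and Phospho1 was lower, where 24.1% of all genes were. Their median log2 fold change was 0.92, against 0.01 over all genes. Between Achilles and patellar tendon Bglap was higher in Achilles, where 3.1% of all genes were, and no gene of the set was lower, where 2.06% were. At an unadjusted p under 0.05 there were 2 genes in this pair, and DESeq2 called 2. Between Achilles and supraspinatus tendon Phex and Bglap were higher in Achilles (25.4% of all genes) and Alpl, Phospho1, Mepe and Spp1 were lower (24.7%), with a median of -0.91, against 0.05 over all genes.

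Between flexor and patellar tendon Phospho1 was higher in flexor (25.8% of all genes) and Sp7, Runx2, Phex and Dmp1 were lower (24.7%), with a median of -0.52, against 0.03 over all genes. Between flexor and supraspinatus tendon Phex was higher in flexor (23.4% of all genes) and 7 genes were lower (24.3%), all but Bglap and Spp1 of the rest, with a median of -1.43, against -0.03 over all genes. Between patellar and supraspinatus tendon Phex was higher in patellar tendon (28.8% of all genes) and 6 genes were lower (27.5%): Sp7, Alpl, Phospho1, Ibsp, Mepe and Spp1. The median there was -1.23, against 0.05 over all genes. In each comparison with supraspinatus tendon more of the set was lower than higher, and in 2 of them 6 or 7 of 10 genes were lower, but the genes were picked with earlier results known and these shares carry no test. Comparisons that share a tendon share its libraries.

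**Figure D4:**
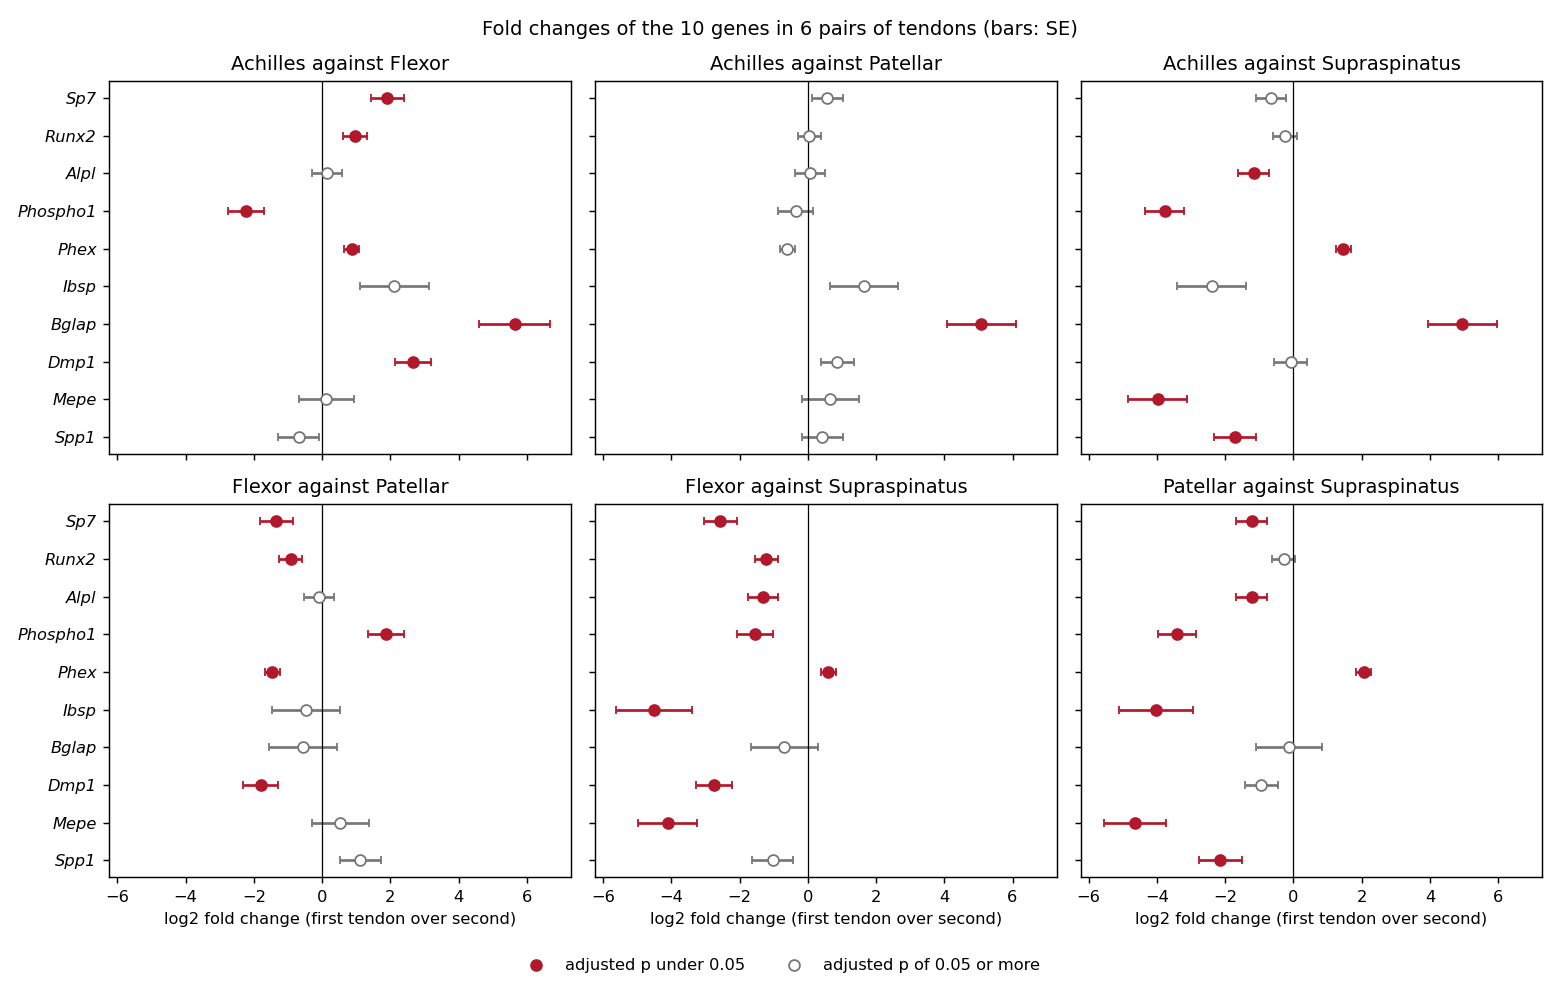
Log2 fold change (horizontal axis, first tendon over second) of the 10 genes in the 6 pairs of tendons, with bars for SE; filled points have an edgeR adjusted p under 0.05. Bglap is near 5 in all 3 Achilles panels, and Phospho1 and Phex lie on opposite sides of 0 in every pair except Achilles against patellar.

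Other osteoblast and osteocyte genes moved in both directions. Of 20 tested, 9 were higher and 3 were lower in Achilles than in supraspinatus tendon, 9 were higher and 2 were lower in flexor than in supraspinatus tendon, and 6 were higher and 8 were lower in patellar than in supraspinatus tendon. In flexor against patellar tendon 11 were higher and 2 were lower, in Achilles against flexor tendon 5 were higher and 6 were lower, and in Achilles against patellar tendon all 5 called were higher. Vdr, the vitamin D receptor, averaged 15.9 ± 2.94 CPM in Achilles, 5.76 ± 2.30 in flexor, 18.9 ± 5.08 in patellar and 2.40 ± 0.420 CPM in supraspinatus tendon, the same order of tendons as Phex. It was 2.98 ± 0.30 higher in patellar than in supraspinatus tendon (edgeR adjusted p = 3.35e-06). The Wnt co-receptor genes Lrp5 and Lrp6 were flexor genes, higher in flexor than in supraspinatus tendon by 2.84 ± 0.35 and 2.31 ± 0.23 (edgeR adjusted p = 1.89e-05 and 4.31e-06). Lrp5 averaged 24.1 ± 9.83 CPM in Achilles, 120.5 ± 31.8 in flexor, 26.7 ± 13.5 in patellar and 16.8 ± 3.62 CPM in supraspinatus tendon.

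Osteocyte genes differed in how far they were detected. Dmp1, Phex and Mepe, all made by osteocytes, were measured as given above. Sost, the Wnt inhibitor sclerostin of mature osteocytes, had 0 to 6 counts per library, and Fgf23, the phosphate hormone of bone, had 0 to 12; neither passed the filter. Dspp had 2 counts in Achilles 2 and 0 in the other 15 libraries. Ifitm5, an osteoblast membrane protein, had 48 to 84 counts in the Achilles, 58 to 107 in the flexor, 28 to 49 in the patellar and 24 to 52 in the supraspinatus libraries.

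Genes that set phosphate and pyrophosphate levels moved in both directions. Of 15 tested, 3 were higher and 7 were lower in patellar than in supraspinatus tendon, and 5 were higher and 4 were lower in Achilles than in supraspinatus tendon. Flexor against patellar tendon gave 5 higher and 2 lower, flexor against supraspinatus tendon 5 and 5 and Achilles against flexor tendon 2 and 3; in Achilles against patellar tendon the 1 called, Mgp, was higher. Nt5e, the CD73 enzyme that makes adenosine from AMP and releases phosphate, was highest in the flexor tendons, where it was 1.63 ± 0.19 above patellar tendon (edgeR adjusted p = 8.37e-06). Tgm2, a matrix cross-linking transglutaminase, was 1.34 ± 0.17 higher in Achilles than in flexor tendon (edgeR adjusted p = 2.11e-05).

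Osteoclasts, the cells that resorb mineral, share the enthesis with osteoblasts. Of 11 osteoclast markers tested, 6 were higher and 1 was lower in Achilles than in supraspinatus tendon, and 6 were higher and 2 were lower in patellar than in supraspinatus tendon. Achilles against flexor tendon gave 5 higher and 1 lower, flexor against patellar tendon 2 and 4, and flexor against supraspinatus tendon 4 and 3. The summed CPM of the 12 measured was 481.0 to 541.4 in the Achilles, 350.7 to 487.2 in the flexor, 360.9 to 546.7 in the patellar and 258.8 to 327.5 in the supraspinatus libraries. Ctsk alone averaged 245.7 CPM in Achilles, 123.2 in flexor, 211.6 in patellar and 101.3 CPM in supraspinatus tendon. Ocstamp, Oscar and Atp6v0d2 added little, with 30, 160 and 471 counts over all 16 libraries. Macrophages share several of these genes: 6 of 13 macrophage markers were higher in Achilles than in supraspinatus tendon and 5 of 13 were higher in patellar than in supraspinatus tendon, as were the marrow markers given above, and their part in the osteoclast marker differences was not tested. Acp5, tartrate-resistant acid phosphatase, averaged 60.5 ± 11.8 CPM in Achilles, 16.5 ± 4.16 in flexor, 42.6 ± 1.63 in patellar and 23.4 ± 5.03 CPM in supraspinatus tendon, and was 1.87 ± 0.19 higher in Achilles than in flexor tendon (edgeR adjusted p = 4.54e-06). Tnfrsf11a, the RANK receptor, was 1.65 ± 0.18 higher in patellar than in supraspinatus tendon (edgeR adjusted p = 5.43e-06). Nfatc1, also on the list, went the other way in both pairs. It was -1.35 ± 0.17 in Achilles against flexor tendon (edgeR adjusted p = 2.45e-05) and -0.44 ± 0.17 in patellar against supraspinatus tendon (0.0397).

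Likeness over the 16 libraries was measured as Pearson r of log2 CPM among 12298 genes with a mean of at least 1 CPM, and points of 1 tendon share the differences between tendons. Alpl and Ibsp were in each other's top 3 (r = 0.825), both highest in supraspinatus 2. The genes most like Sp7 were Mgme1, Robo2 and Bst1 (r = 0.841, 0.839 and 0.826), and Ibsp was also followed by Psmd5 and Mapkap1 (0.842 and 0.821) and Alpl by Pus10 and Fam227b (0.816 and 0.795). Spp1 was followed most closely by Itga10, Etnppl and Plod2 (r = 0.933, 0.914 and 0.911). Sp7, below 1 CPM on average, was not among the genes searched; its own r with Runx2 was 0.813.

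The authors' deposited table of pairwise comparisons lists 12588 genes, among them 8 of the 10 here, without Sp7 and Runx2. For these 8 genes in 6 pairs, the authors' deposited table had an FDR under 0.05 in 24 of 48 values, of which 23 were also called in the edgeR fit described here, and 3 further values were called here only. The direction in the authors' deposited table was the same in 47 of the 48. The 1 value called only in the authors' deposited table was Ibsp in Achilles against flexor tendon (log2 fold change 2.56, FDR 0.0349).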

How the data were processed

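RNA was purified with a column kit and DNase treatment and sequenced from 16 libraries, per the labels' protocols. The authors deposited a table of raw counts by Ensembl gene and library and a table with, per the file headers, log2 fold changes and unadjusted and adjusted p-values for each pair of tendons. HISAT2, FastQC, edgeR and the rn6 build are named in the submitters' processing notes; of the counter, annotation release and strand, none is stated, so reads of overlapping genes cannot be told apart.

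Libraries were grouped by labelled tendon. The 10 genes and the 11 gene lists were chosen with earlier results of these data known. Genes were filtered with filterByExpr (minimum count 10, minimum total 15), which left 16948 of 23285, and scaled by TMM. The lowest level that counts for this filter was 0.113 CPM on library totals, before TMM scaling. It was reached by 13 libraries for Sp7 (1 of them flexor), 12 for Bglap, 15 for Mepe and 16 for the other 7 genes. Each tendon had its own coefficient in a quasi-likelihood model (12 residual degrees of freedom), fitted in edgeR 4.0.16 on R 4.3.3, and SE was derived from the fold change and its F statistic. Log2 CPM for likeness used a prior count of 2. The fit was tested on simulated data. From each list the 3 genes with the smallest adjusted p among the 4 tendons could be named, of which some are given, with defining markers added; the text names likeness genes of Sp7, Ibsp, Alpl and Spp1 by rule. Listed symbols with no match (among them Dlx6, Dkk1, Ahsg, Dcstamp, Itgam, Pecam1, Cldn5, Ttn, Myh1, Myh2 and Atp2a1) are not analysed here; Lect1, an older symbol of Cnmd, was analysed under that name. Erythroid markers (5 of 6 tested differed among the tendons) and tendon fibroblast genes (10 of 13) were lists too, where 75.6% of all genes tested differed. Sequences came from RefSeq.

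Alternatives were DESeq2 1.42.0, library totals, median-of-ratios size factors, limma-voom (limma 3.58.1), no filter, a filter of 1 CPM in 4 libraries, a replicate block, fits of 2 tendons alone, and leaving out each library. A fit without Achilles 1 and patellar 1 was chosen after seeing the data. Tables and figures used Python 3.11.15.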

Additional observations from a re-analysis of the deposited data

Results flagged for a closer look

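Within a tendon, 1 library lay far from the other 3 for 4 of the 40 combinations of gene and tendon, by the gap to the nearest library over the whole range (Dixon's 95% limit); chance gives about 1 in 20. Sp7 stood at 0.344 CPM in patellar 4, against 0.156 to 0.172 CPM in the other patellar libraries. Phospho1 stood at 42.0 CPM in patellar 1, against 9.73 to 10.6 CPM in the others, and Mepe stood at 0.718 CPM in the same library, against 0.114 to 0.158 CPM. Ibsp stood at 3.49 CPM in flexor 3, against 1.67 to 1.93 CPM in the other flexor libraries.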

How the results depend on the processing

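No called difference of the 10 genes reversed its direction under any alternative run. Between Achilles and patellar tendon 874 genes were called with edgeR, 1977 with DESeq2, 268 with those 2 tendons alone, 1381 without Achilles 1 and patellar 1, and 342 to 1415 without 1 library (lowest without Achilles 2, highest without patellar 1, and well below the full count also without Achilles 3 or patellar 2, 3 or 4). Of the 10 genes, this pair called 1, or 2 with DESeq2 and without Achilles 1 and patellar 1, and 0 with limma-voom, with the 2 tendons alone and with the filter of 1 CPM in 4 libraries; at an unadjusted p under 0.05 those gave 2, 2 and 1. That filter leaves Sp7 and Bglap untested. Limma-voom called 3 genes of the set in flexor against patellar (5 with edgeR), 5 in flexor against supraspinatus (8) and 4 in patellar against supraspinatus tendon (7). Without 1 library those counts ran from 3 to 6, 5 to 8 and 5 to 7, the Achilles-flexor count from 5 to 7, the Achilles-patellar count stayed at 1, the Achilles-supraspinatus count ran from 4 to 6, and the count among the 4 tendons from 8 to 10; that last count was 7 with limma-voom and 7 on library totals, 8 with the filter of 1 CPM in 4 libraries and 9 with the replicate block. The causes were not tested. For single genes, 736 of the 818 alternatives to a called pair kept the call and 82 lost it. Library totals in place of TMM moved the median of all genes by 0.415, 0.344 and 0.415 in Achilles, flexor and patellar against supraspinatus tendon, and the share of calls that were higher to 78.7, 78.3 and 77%, against 50.7, 49 and 51.1%. Replicate numbers were not taken as pairs, since the labels do not say whether a number marks an animal shared across tendons. Of 24 same-number pairs of libraries, whose deviations had r of -0.21 to 0.37, 9 were over 0.1, against 10 of 72 other pairs. Best correlations were with the own number for 10 of 16 libraries, a hint of pairing from the data and not the design. The replicate block ended the calls of Sp7 in patellar against supraspinatus (adjusted p = 0.0658), Phex in flexor against supraspinatus (0.0511), and Alpl in Achilles (0.0813) and patellar (0.0571) against supraspinatus tendon and among the 4 tendons (0.072). Sp7, Bglap outside the Achilles libraries and Mepe outside the supraspinatus libraries rest on few counts, which limits the precision of their folds.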

Other observations

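A set of 3 genes of vitamin K-dependent Gla proteins, grouped here after their values were seen, had higher means in Achilles than in each of the other tendons. They were Bglap, Mgp, which encodes matrix Gla protein, an inhibitor of calcification, and Ucma, which encodes a Gla-rich protein of cartilage. The Bglap level rested mainly on Achilles 2 and 3 (9.28 and 14.03 CPM). With limma-voom its calls against patellar and supraspinatus tendon were lost (adjusted p = 0.175 and 0.0616). Mgp averaged 900.5 ± 117 CPM in Achilles, 357 ± 62.3 in flexor, 497 ± 71.2 in patellar and 537 ± 50.04 CPM in supraspinatus tendon (SD, n = 4 each). It was higher in Achilles by 1.34 ± 0.15, 0.86 ± 0.15 and 0.74 ± 0.15 against flexor, patellar and supraspinatus tendon (edgeR adjusted p = 8.51e-06, 0.00599 and 7.53e-04). Ucma averaged 176.5 ± 45.9 CPM in Achilles, 24.1 ± 11.4 in flexor, 20.6 ± 9.91 in patellar and 18.3 ± 4.98 CPM in supraspinatus tendon, and was higher in Achilles by 2.87 ± 0.38, 3.10 ± 0.38 and 3.27 ± 0.38 (edgeR adjusted p = 3.1e-05, 6.43e-04 and 1.25e-05).

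Within the Achilles libraries Bglap did not run with Ucma and Mgp. Both of those were highest in Achilles 4 (242.5 and 1054 CPM), whereas Bglap was highest in Achilles 3 (14.03 CPM). Ucma ranged from 135.7 to 242.5 CPM and Mgp from 784.7 to 1054 CPM, while Bglap ranged from 0.337 to 14.03 CPM. Ggcx, the carboxylase that acts on all of these proteins, averaged 149 ± 18.0 CPM in Achilles, 127 ± 17.4 in flexor, 149 ± 8.93 in patellar and 145 ± 26.9 CPM in supraspinatus tendon, and did not pass the test among the 4 tendons (edgeR adjusted p = 0.354).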
